A study of Mus musculus with 12 samples.

Results

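The comparison described here set gonadal somatic cells of XX mouse embryos that could not make the +KTS form of the transcription factor WT1 against the same cells of XX wild-type (WT) embryos. The members were cells, chosen by a rule on their content rather than on any difference between the groups: at least 1000 genes detected, at most 10% mitochondrial UMIs (unique molecular identifiers, which count captured RNA molecules), and no signature of germ, endothelial, immune or red blood cells. The rule left 25183 of 35517 barcodes in 4 of the study's 12 libraries, and 71955 cells in the whole series. XX WT replicates 1 and 2 gave 5846 and 6331 cells, and XX +KTS KO replicates 1 and 2 gave 8435 and 4571. Both XX groups were collected around embryonic day 12, when the XX gonad starts to build an ovary, and both had a mixed B6CBAF1/JRj background. The +KTS KO embryos were homozygous for the allele that models Frasier syndrome, a mutation at the splice donor after exon 9 of Wt1 that abolishes +KTS in every cell that uses the gene, so the kidney and adrenal primordia were mutant too. No drug or transgene was involved. The gonads were freed of the mesonephros, and each XX library came from 1 embryo. The p-values below rest on the spread between the 2 libraries of a group, pooled over all 6 groups of the series. The XX +KTS KO embryos had fewer tail somites than the XX WT embryos, replicate 2 the fewest, so genotype and a small difference in stage cannot be told apart. The series also held XY WT and XY +KTS KO gonads of the same age and background, used below for the difference between the sexes. The XX change is part of that difference, so the limit on stage holds there too. Gonads without the -KTS form entered no comparison below. They served in the choice of genes tested, in the scaling and in the estimate of the spread.

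WT1 binds DNA and RNA through zinc fingers. Alternative splicing at the end of exon 9 adds or omits the amino acids lysine, threonine and serine (KTS) between the last zinc fingers, and -KTS binds DNA more tightly than +KTS. In the early gonad, WT1 is made by the coelomic epithelium and by the supporting cell lineage, whose precursors become Sertoli cells in a testis, under Sry and Sox9, or pre-granulosa cells in an ovary, under Foxl2 and the Wnt4/Rspo1 pathway. Steroid-producing cells normally appear in the fetal testis and not in the fetal ovary at this age.

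The 2 splice forms differ by 9 bases, shown here because they are what the mutant embryos lacked. Wt1 (ENSMUSG00000016458) lies at chr2:105126529-105173616 on the plus strand of GRCm38. Exon 9 of 10 spans chr2:105169926-105170018 in transcript Wt1-205 and ends at 105170009 in Wt1-202. In the following lines, 30 bases on each side of the junction are in lower case, and the capitals mark the inserted bases.
Wt1-205, +KTS: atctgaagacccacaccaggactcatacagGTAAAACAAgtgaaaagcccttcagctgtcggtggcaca
Wt1-202, -KTS: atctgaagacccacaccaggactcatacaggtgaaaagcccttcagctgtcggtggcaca
The libraries read the 3′ ends of transcripts, far from this junction, so they gave the total of both forms and could not check the loss of +KTS. Total Wt1 stood at 251 and 225 counts per 1000000 UMIs (CPM, scaled by library composition) in KO replicates 1 and 2, and at 273 and 269 CPM in WT replicates 1 and 2. The difference did not pass the test (log2 fold change -0.19 ± 0.18 SE, edgeR adjusted p = 0.692).

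The summed somatic cells held 76059191 to 110103277 UMIs per XX library, with medians of 11913 to 18991 UMIs per cell. XX +KTS KO replicate 2 had the fewest cells and the highest median. All 4 libraries matched their labelled sex: the summed Y-linked level was at most 0.0394 CPM in the XX libraries, against 136 to 159 CPM in the XY WT and XY +KTS KO libraries. Summed, 5 gonadal somatic genes gave 869, 805, 989 and 967 CPM in KO 1, KO 2, WT 1 and WT 2, so the label of gonadal somatic cell held. Since the rule removed cells by germ, endothelial, immune and red blood cell transcripts, the remaining levels of such genes are no test of the label: 8 germ cell genes summed to 9.41 to 20.01 CPM, 8 endothelial genes to 39.0 to 66.3 CPM, and 7 immune genes to 0.380 to 0.779 CPM. The 6 mesonephric epithelium genes, which the rule did not use, summed to 17.2 to 27.3 CPM. Red blood cell transcripts were higher, at 133 to 957 CPM over 8 genes, with the extremes in KO replicate 2 and WT replicate 2. Before they were set aside, germ cells made up 14.3% and 7.54% of the cells that passed the filters in WT, and 5.56% and 3.20% in +KTS KO.

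A total of 879 genes passed a false discovery rate of 0.05 among 18019 in the XX test (4.88%). Among these, 400 rose (2.22%) and 479 fell (2.66%), and 296 of the risen genes and 399 of the fallen genes changed by at least 2-fold. The median log2 fold change over all genes was -0.00042. The number of calls rested on having all 4 embryos: it was 308 without KO replicate 1, 161 without KO replicate 2, 173 without WT replicate 1 and 183 without WT replicate 2. In summed cells, fewer cells of a type and less RNA per cell cannot be told apart, so shares of cells are given below for the leading genes.

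The 15 genes with the largest rises among those at 20 CPM or more were Pnmt, Gm2694, Ctrb1, Ctrl, Mgam, Ren1, Cyp11a1, Cdo1, Lmo1, Arhgef16, Trim47, Tmem184a, Gsg1l, Tagln and Olfml3, which were not tested for a shared function. Pnmt, which makes adrenaline from noradrenaline, was at 53.1 and 40.2 CPM in KO replicates 1 and 2 and at 1.59 and 1.5 CPM in the WT replicates. That is 30.3-fold higher in the mutant (log2 4.92 ± 0.23 SE, edgeR adjusted p = 2.49e-05), on 5661 and 3719 UMIs against 121 and 159. Both KO libraries stood far above both WT libraries. Olfml3, a secreted olfactomedin-domain protein, was at 142 and 135 CPM in KO against 7.97 and 14.1 CPM in WT (log2 3.64 ± 0.37 SE, adjusted p = 0.00154). Ctrb1 and Ctrl encode chymotrypsin-like proteases best known from the pancreas. Ctrb1 was at 98.2 and 59.9 CPM in KO against 4.53 and 3.05 CPM in WT (log2 4.39 ± 0.65 SE, adjusted p = 0.00936), and Ctrl was at 41.5 and 27.9 CPM against 6.24 and 4.60 CPM (log2 2.68 ± 0.24 SE, adjusted p = 0.000831). Lmo1, a LIM-only transcriptional cofactor, was at 118 and 124 CPM in KO and at 22.5 and 21.5 CPM in WT, with close replicates (log2 2.46 ± 0.30 SE, adjusted p = 0.00298).

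Among the remaining risers, Gm2694 was at 44.7 and 53.6 CPM in KO against 2.06 and 1.80 CPM in WT. Ren1, the renin gene, was at 21.6 and 42.1 CPM against 2.53 and 1.49 CPM, and Gsg1l, an auxiliary subunit of glutamate receptors, at 27.8 and 24.8 CPM against 1.76 and 1.61 CPM. In each of these the lower KO library was several-fold above the higher WT library. Mgam, the intestinal maltase-glucoamylase, was at 27.8 and 41.5 CPM against 1.76 and 3.44 CPM, and the ubiquitin ligase Trim47 at 28.7 and 25.3 CPM against 4.66 and 2.33 CPM. Cdo1, which oxidises cysteine, was at 60.0 and 59.2 CPM in KO and at 7.63 and 7.74 CPM in WT, nearly the same in both replicates of each group. Arhgef16, a guanine nucleotide exchange factor, Tmem184a, a membrane protein, and Tagln, an actin-binding protein of smooth muscle, had log2 fold changes of 2.94, 2.57 and 2.48. Of the 15, 8 (Pnmt, Gsg1l, Olfml3, Cdo1, Arhgef16, Ctrl, Tmem184a and Lmo1) also passed the threshold whichever XX embryo was left out. Ren1 and Cyp11a1 lost it in every such fit and the other 5, Gm2694, Ctrb1, Mgam, Trim47 and Tagln, in at least 1, at adjusted p from 0.0515 to 0.259. Because Tagln and Ren1 are also genes of perivascular cells and Pnmt of adrenal medulla, markers of such cells were checked: 8 perivascular genes summed to 41.1 and 68.8 CPM in KO and to 78.5 and 74.1 CPM in WT, and 6 neural crest and neuron genes to 3.76 and 3.40 CPM against 5.01 and 6.23 CPM. Of the 8 perivascular genes, 4 had a positive and 4 a negative estimate (median log2 fold change 0.04), and of the 5 neural crest and neuron genes tested, 3 and 2 (median 0.21). Their part in these rises was not tested. Gm2694, Ctrb1, Gsg1l, Trim47, Cyp11a1 and Tmem184a each share sequence on the same strand with another annotated gene, as do Hpgd, Scarb1, Rnf43, Fgfr2, Pdgfb, Stra6 and Col4a1 among the called genes below, so their counts are less certain.

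**Figure D1:**
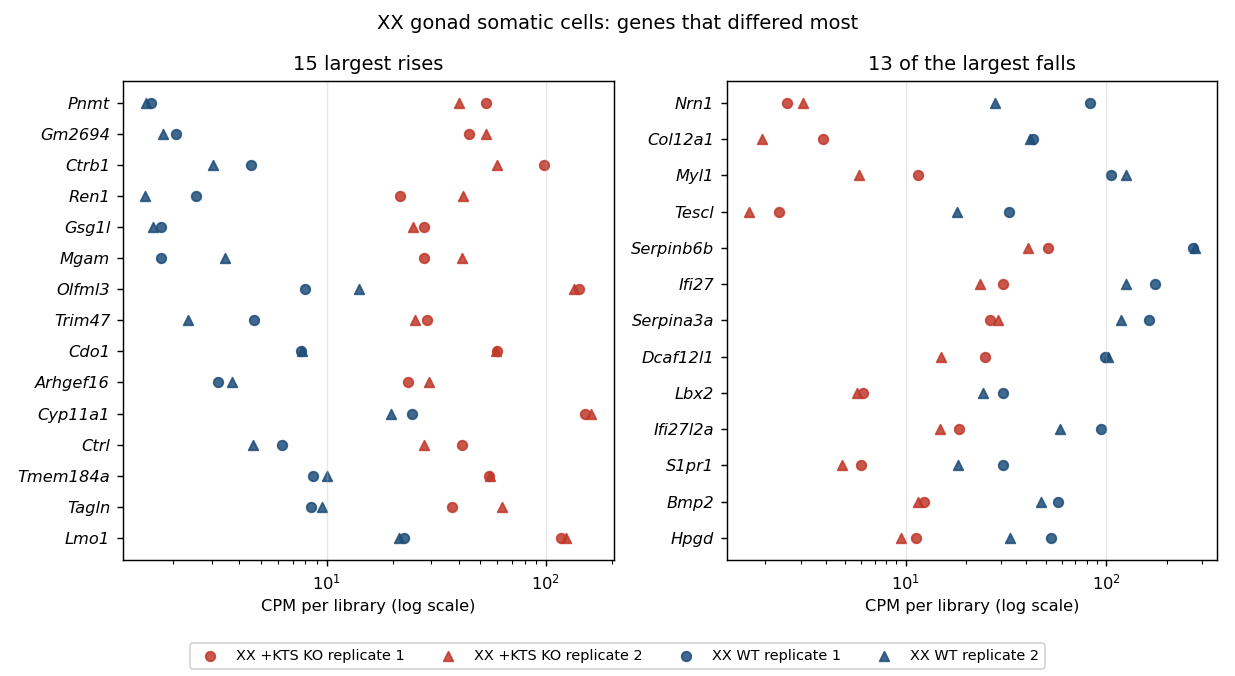
Level of the 15 genes with the largest rises (left) and 13 of the 15 with the largest falls (right) in XX +KTS KO (red) and XX WT (blue) gonadal somatic cells, in CPM on a log scale; circles are replicate 1 and triangles replicate 2. Groups that do not overlap were a condition for naming a gene here, and Pnmt goes from 1.59 and 1.5 CPM to 53.1 and 40.2 CPM and Serpinb6b from 269 and 278 CPM to 51.4 and 40.8 CPM.

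Promoters of 3 of these risers are shown because 2 belong to the same protease family and the third holds a match to a WT1-type motif. Each line gives the 250 bases before the transcript start, 5′ to 3′ on the gene's strand, from RefSeq on GRCm38.p6. Ctrb1 is at chr8:111691011-111691260, Ctrl at chr8:105933863-105934112 and Olfml3 at chr3:103738002-103738251, all on the minus strand, and the capitals in Olfml3 mark the motif match.
Ctrb1: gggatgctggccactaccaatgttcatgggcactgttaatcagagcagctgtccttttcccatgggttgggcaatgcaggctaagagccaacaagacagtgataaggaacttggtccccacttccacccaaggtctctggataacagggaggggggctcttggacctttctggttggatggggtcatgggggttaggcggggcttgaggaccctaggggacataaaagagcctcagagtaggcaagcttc
Ctrl: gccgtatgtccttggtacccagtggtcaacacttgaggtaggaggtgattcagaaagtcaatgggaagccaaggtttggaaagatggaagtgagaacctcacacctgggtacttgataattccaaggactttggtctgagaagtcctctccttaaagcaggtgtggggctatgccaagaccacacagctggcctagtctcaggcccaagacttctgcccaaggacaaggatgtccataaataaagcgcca
Olfml3: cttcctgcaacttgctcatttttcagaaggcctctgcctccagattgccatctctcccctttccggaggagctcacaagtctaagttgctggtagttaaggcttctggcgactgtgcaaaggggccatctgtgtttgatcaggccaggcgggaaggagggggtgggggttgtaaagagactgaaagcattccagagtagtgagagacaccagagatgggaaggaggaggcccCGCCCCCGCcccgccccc
A set of 3 motifs of 9 bases associated with WT1 and the related EGR factors, GCGTGGGAG, GCGGGGGCG and GCGTGGGCG, was searched on both strands of these windows. They occurred in 0.405%, 2.57% and 0.536% of 32851 promoters, and at least 1 of them in 3.44%, or in 5.71% of the promoters of tested genes. Of the 15 risers, 11 had a promoter entry, with 14 entries in total, and 2 of these entries, of Olfml3 and Trim47, held a motif. The Trim47 window overlaps an annotated exon, and 75.2% of its bases are G or C. Of the 13 fallers, 5 had an entry, with 6 entries in total, and none of these held a motif. A match is a string of letters, and binding was not measured.

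The described falls, 13 of the 15 largest, were led by Nrn1, the neuritin gene, at 2.57 and 3.06 CPM in KO and at 82.7 and 28 CPM in WT (log2 -4.30 ± 0.49 SE, adjusted p = 0.00281). The WT replicates were unequal, and both were far above the KO replicates. Nrn1 was not called in the fit of the 4 XX libraries alone (edgeR adjusted p = 0.0727). The most abundant of the 13 in WT were Serpinb6b and Serpina3a, which encode serine protease inhibitors, and Ifi27, an interferon-responsive gene. The 13 were not tested for a shared function. Serpinb6b was at 51.4 and 40.8 CPM in KO against 269 and 278 CPM in WT (log2 -2.57 ± 0.35 SE, adjusted p = 0.005), Serpina3a at 26.3 and 28.8 CPM against 164 and 119 CPM (log2 -2.36 ± 0.36 SE), and Ifi27 at 30.6 and 23.5 CPM against 176 and 126 CPM (log2 -2.48 ± 0.26 SE, adjusted p = 0.0016). Ifi27l2a, a neighbour of Ifi27 on the other strand of chromosome 12 (chr12:103442167-103443680, next to chr12:103434211-103440239), also fell, from 93.9 and 58.6 CPM to 18.4 and 14.8 CPM. These genes belong to families of similar copies, so their counts are less certain.

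Among the remaining fallers, Bmp2, a BMP ligand of pre-granulosa cells, was at 12.3 and 11.5 CPM in KO against 57.5 and 47.3 CPM in WT. S1pr1, a receptor for sphingosine-1-phosphate, was at 6.01 and 4.79 CPM against 30.4 and 18.2 CPM. Hpgd, which degrades prostaglandins, was at 11.2 and 9.54 CPM against 53.0 and 33.0 CPM, and Tescl, a calcium-binding protein related to tescalcin, at 2.35 and 1.66 CPM against 32.9 and 18.0 CPM. In all 4 the KO replicates were close to each other and WT replicate 1 was the highest. S1pr1 and Hpgd are also genes of endothelial cells: S1pr1 was found in 27.6% (KO) and 29.4% (WT) of the endothelial cells set aside, and Hpgd in 42.7% and 26.9%. The sum of the 8 endothelial genes left in the somatic cells was also lower in KO, at 54.3 and 39.0 CPM against 60.6 and 66.3 CPM in WT. Of these 8 genes, 6 had a negative and 2 a positive estimate (median log2 fold change -0.57), and 0 were called. Their part in these falls was not tested. The other members were Col12a1, a fibril-associated collagen (log2 -3.86), Myl1, a muscle myosin light chain (-3.74), Dcaf12l1 (-2.33, on the X chromosome) and the homeobox gene Lbx2 (-2.21). Nrn1, Tescl, Ifi27 and Lbx2 passed the threshold whichever XX embryo was left out. The other 9 lost it in at least 1 fit, at adjusted p from 0.0554 to 0.306, and Col12a1, Myl1, S1pr1 and Bmp2 lost it in all 4.

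Of 17 pre-granulosa genes, 2 fell, against 2.66% of all genes, and none rose, with a median log2 fold change of -0.58 against -0.00042 for all genes. Fst encodes follistatin, the secreted antagonist of activin that marks the XX supporting lineage. It was at 38.9 and 8.89 CPM in KO, unequal between the replicates, and at 529 and 462 CPM in WT. This 20.7-fold difference in the fit (log2 -4.37 ± 1.18 SE) did not pass the test (edgeR adjusted p = 0.0797). Of 13 alternatives, DESeq2 called it (adjusted p = 0.00131) and the other 12 did not, the highest at 0.408. Irx3, a homeobox factor of granulosa precursors, had 14.7 and 3.96 CPM against 57.8 and 59.8 CPM (log2 -2.65 ± 0.89 SE, adjusted p = 0.15). For both genes KO replicate 2 was the lowest library, and no KO library reached a WT library. Kitl, the ligand of the germ cell receptor Kit, had 110 and 142 CPM against 320 and 374 CPM (log2 -1.46 ± 0.39 SE, adjusted p = 0.0681), and was called in 3 of 13 alternatives, which were DESeq2 (adjusted p = 0.00201), the replicate block and the 4 XX libraries alone, with a highest adjusted p of 0.291 over the 13. The 2 called members were Bmp2, given above, and Cdkn1b, the p27 cell cycle inhibitor, at 62.2 and 81.1 CPM against 124 and 132 CPM (log2 -0.84 ± 0.18 SE, adjusted p = 0.0298).

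The factors that specify the ovarian fate did not pass the test. Foxl2, the granulosa cell transcription factor, was at 15 and 6.57 CPM in KO and at 19.0 and 22.6 CPM in WT (log2 -0.95 ± 0.62 SE, adjusted p = 0.505). Rspo1, which amplifies Wnt signals, was at 214 and 114 CPM against 203 and 153 CPM, so that the groups overlapped (log2 -0.12 ± 0.30 SE, adjusted p = 0.908). Wnt4 had 349 and 222 CPM against 403 and 428 CPM (log2 -0.54 ± 0.41 SE, adjusted p = 0.571). Of 6 genes of the earlier pre-supporting cells 0 were called, which at 4.88% of all genes says little about so short a list: Runx1 was at 131 and 96.4 CPM against 96.3 and 104 CPM, Wnt6 at 502 and 401 CPM against 322 and 369 CPM, and Sprr2d at 48.6 and 13.1 CPM against 154 and 119 CPM (log2 -2.14 ± 0.75 SE, adjusted p = 0.168). The 6 include Sry, which had 0 UMIs in all 4 XX libraries and so could not be called. The direction of Rspo1 and Runx1 turned when 1 library was left out.

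Of 12 Sertoli genes, 4 rose and none fell, against 2.22% of all genes, and 8 had a positive and 4 a negative estimate. A set of 7 Sertoli markers summed to 116 and 60.65 CPM in KO replicates 1 and 2 and to 56.7 and 57.9 CPM in WT. KO replicate 2 was thus near the WT level. Of these 7 markers, 4 had a positive and 3 a negative estimate (median log2 fold change 0.21), and 2 were called. Amh, the hormone that removes the Müllerian ducts, was at 19.5 and 7.46 CPM in KO and at 0.328 and 0.376 CPM in WT (log2 5.24 ± 0.74 SE, edgeR adjusted p = 0.00762), on 2074 and 689 UMIs against 25 and 40. Dhh, the Hedgehog ligand of Sertoli cells, was at 5.97 and 4.51 CPM against 0.420 and 0.461 CPM (log2 3.56 ± 0.34 SE, adjusted p = 0.00113). Cbln4 was at 3.91 and 5.50 CPM against 1.64 and 0.969 CPM, and Vnn1 at 6.93 and 5.86 CPM against 2.01 and 2.12 CPM. These levels were low in absolute terms: in XY WT gonads Amh stood at 132 ± 89.5 CPM (SD, n = 2) and Dhh at 56.5 ± 19.4 CPM. Sox9, the factor that drives the Sertoli fate, was at 4.84 and 6.66 CPM in KO and at 3.79 and 7.84 CPM in WT (log2 -0.02 ± 0.71 SE, adjusted p = 0.994), against 203 ± 54.0 CPM in XY WT. The WT range enclosed both KO values, and Sry had 0 UMIs in all 4 XX libraries, where 3 counts would be 0.0282 to 0.0394 CPM. Dhh passed the threshold whichever XX embryo was left out. It was also found in 2.30% (KO) and 3.25% (WT) of the endothelial cells set aside, against 2.58% and 0.19% of somatic cells. The part of endothelial cells in its rise was not tested. Amh lost it without either WT replicate (adjusted p = 0.082 and 0.0755), Cbln4 without KO replicate 2 or WT replicate 2 (0.0594 and 0.057), and Vnn1, Bmp2 and Cdkn1b in all 4 fits. Dhh shares sequence on its strand with Rhebl1.

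**Figure D2:**
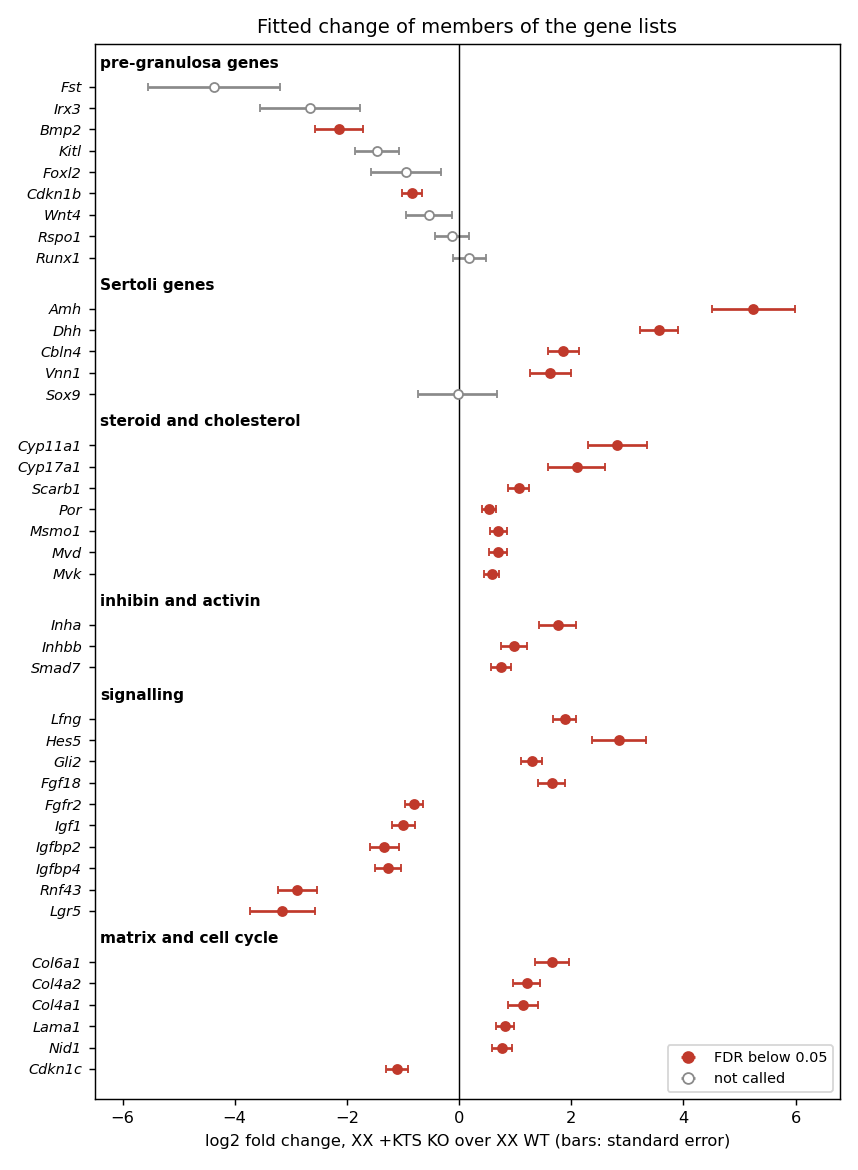
Fitted log2 fold change, XX +KTS KO over XX WT, of members of the gene lists; points are estimates, bars are standard errors, filled points passed a false discovery rate of 0.05 and open points did not. Pre-granulosa genes lie mostly left of 0 with wide bars (Fst at -4.37 ± 1.18), while Amh, Dhh, Cbln4 and Vnn1 lie right of 0 and Sox9 lies at -0.02.

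Shares of cells with a UMI were also taken, with each cell thinned to 5000 UMIs and 273 to 437 shallower cells per library left out. At least 1 Fst UMI was found in 9.06% and 2.84% of cells in KO replicates 1 and 2 and in 44.7% and 43.2% in WT (before thinning, 9.13% and 49.2% on average). The Fst-positive KO cells also held fewer copies, 2.25 and 1.65 UMIs each, against 6.42 and 5.88 in WT. Foxl2 was found in 6.6% and 2.98% of cells in KO and in 8.68% and 9.27% in WT, Irx3 in 5.16% and 1.93% against 17.3% and 18.3%, and Bmp2 in 4.64% and 4.47% against 20% and 17.1%. Among the other pre-granulosa genes, the shares for Rspo1 overlapped, at 54.6% and 38.7% in KO and 54.5% and 46.8% in WT. Amh was found in 6.35% and 2.88% of KO cells and in 0.162% and 0.216% of WT cells. As a background level, endothelial cells of the same libraries (medians of 15390 to 26687 UMIs) held Fst in 0.84% (KO) and 4.99% (WT), Foxl2 in 1.05% and 1.32%, Irx3 in 5.45% and 13.8%, and Amh in 0% of cells of both groups. They held Bmp2 in 1.83% and 6.59% and Rspo1 in 6.19% and 3.63%. For Irx3 the endothelial share differed between the groups and was close to the somatic share in KO, so it gave no clear background level. For Bmp2 the endothelial share differed in the same direction as the somatic shares. All endothelial shares given here are means of the 2 libraries of a group after thinning. These held 238 and 87 such cells in KO replicates 1 and 2, and 133 and 212 in WT replicates 1 and 2. Low endothelial shares thus rest on few cells. With 2 libraries against 2, an exact permutation test cannot give a two-sided p below 0.333, so shares were not tested.

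**Figure D3:**
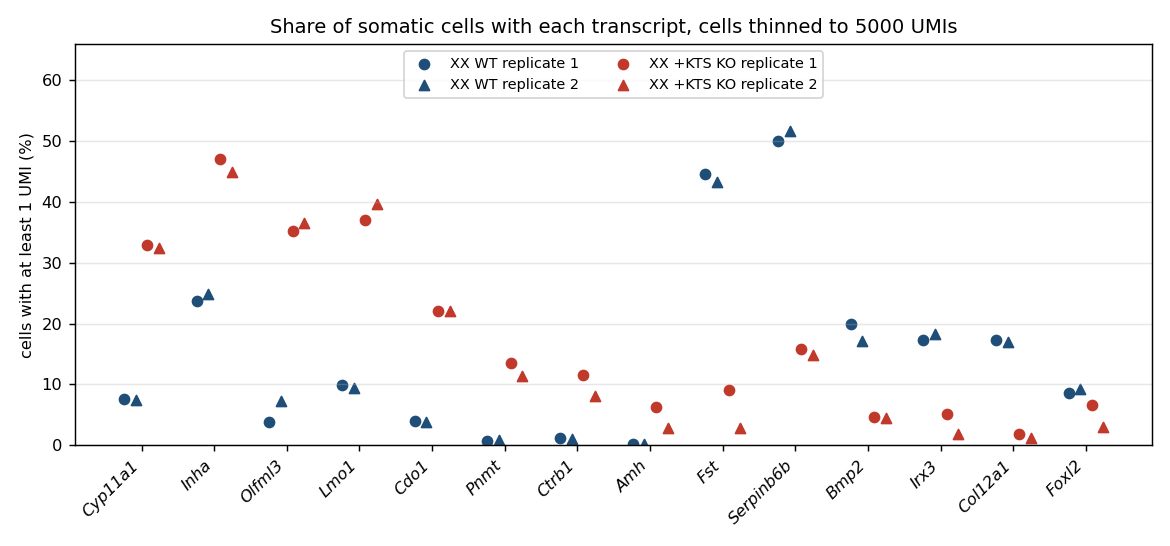
Share of XX gonadal somatic cells with at least 1 UMI of each gene, in percent, in cells thinned to 5000 UMIs; each point is a library, blue for WT and red for +KTS KO, circles for replicate 1 and triangles for replicate 2. The leftmost genes are detected in more KO cells (Cyp11a1 in 32.9% and 32.4% against 7.58% and 7.49%) and those from Fst to the right in fewer.

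Genes that act early in steroid synthesis were among the risers. Of 15 steroid synthesis genes, 4 were called higher and none lower (median log2 fold change 0.54), and of 22 cholesterol synthesis genes, 3 higher and none lower (median 0.29), against 2.22% of all genes called higher. Cyp11a1, which cleaves the cholesterol side chain and so makes pregnenolone, was at 152 and 161 CPM in KO and at 24.6 and 19.6 CPM in WT, 7.07-fold higher (log2 2.82 ± 0.53 SE, edgeR adjusted p = 0.0201). Scarb1, the receptor that takes up high-density lipoprotein cholesterol, was at 27.4 and 26.6 CPM against 12.2 and 13.7 CPM (log2 1.06 ± 0.19 SE, adjusted p = 0.015). Por, the electron donor of microsomal cytochromes P450, was at 54.9 and 50.3 CPM against 36.7 and 35.7 CPM (log2 0.54 ± 0.13 SE, adjusted p = 0.0385). Cyp17a1, needed for androgens, stayed low at 5.18 and 4.21 CPM against 0.997 and 1.19 CPM (log2 2.10 ± 0.51 SE, adjusted p = 0.0467). The 5 markers of fetal Leydig cells, the steroid-producing cells of the testis (Cyp17a1, Hsd3b1, Insl3, Star and Cyp11a1), summed to 177 and 187 CPM in KO and 38.9 and 29.4 CPM in WT, most of it from Cyp11a1. All 5 had a positive estimate (median log2 fold change 1.91) and 2, Cyp11a1 and Cyp17a1, were called. Star, which brings cholesterol into mitochondria, was at 18.8 and 19.8 CPM against 12.2 and 7.71 CPM and did not pass (adjusted p = 0.138). The called cholesterol enzymes were Msmo1, at 61.1 and 56.9 CPM against 40.6 and 32.2 CPM, Mvd, at 36.6 and 30.9 CPM against 23.2 and 18.6 CPM, and Mvk, at 50.7 and 50.1 CPM against 34.6 and 32.8 CPM.

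Of 15 activin, inhibin and follistatin genes, 3 rose, against 2.22% of all genes: Inha, the inhibin alpha subunit, at 235 and 228 CPM in KO against 70.5 and 66.6 CPM in WT (log2 1.76 ± 0.33 SE, adjusted p = 0.0177), Inhbb, the beta B subunit, at 65.2 in both KO libraries against 30.5 and 35.5 CPM (log2 0.98 ± 0.23 SE, adjusted p = 0.0411), and Smad7, an intracellular inhibitor of the pathway, at 110 and 119 CPM against 69.2 and 67.1 CPM (log2 0.75 ± 0.18 SE, adjusted p = 0.0471). Among 14 transcription factors of the bipotential gonad, 1 rose. This was Nr5a1 (SF1), a regulator of steroidogenic genes and of Inha and Amh, at 65.7 and 70.5 CPM against 35.7 and 34.5 CPM (log2 0.96 ± 0.23 SE, adjusted p = 0.0411). Gata4 was level, at 96.0 and 98.5 CPM in KO and 94.4 and 93.0 CPM in WT, and Nr0b1 (118 and 107 CPM against 69.5 and 60.9 CPM) and Lhx9 (257 and 234 CPM against 375 and 357 CPM) did not pass. Every one of the 11 called genes of these lists lost its call whenever any 1 XX embryo was left out, at adjusted p from 0.0645 to 0.27, with no change of direction. A set of 5 adrenal cortex genes summed to 3.25 and 3.86 CPM in KO and to 2.74 and 2.71 CPM in WT. Of this set, Cyp11b1 and Cyp11b2 had 0 UMIs in all 4 libraries. Whether adrenal cells make these enzymes at this age was not measured, so their absence is no test of such cells. Of the 2 adrenal genes tested, 1 had a positive and 1 a negative estimate (median log2 fold change -0.14). Akr1b7, with the negative estimate, was not called. Mc2r, the receptor for adrenocorticotropic hormone, rose, from 1.51 and 1.70 CPM to 2.78 and 3.37 CPM (log2 0.93 ± 0.20 SE, edgeR adjusted p = 0.0265). Mc2r lost its call in each fit without an XX embryo (adjusted p from 0.0669 to 0.2).

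Cyp11a1 was found in 32.9% and 32.4% of thinned KO cells and in 7.58% and 7.49% of WT cells, and Inha in 47.1% and 45% against 23.8% and 24.8%. Endothelial cells held Cyp11a1 in 7.75% (KO) and 0.236% (WT). The Cyp11a1-positive cells numbered 2630 and 1392 in KO and 421 and 450 in WT. In both groups nearly all of them also held Wnt6, a pre-supporting gene: 95.9% and 94.0% in KO, 89.3% and 92.9% in WT, against 43.2% to 60.4% of the other cells. Few held Tcf21, a gene of interstitial progenitors, at 5.51% and 7.69% in KO and 2.61% and 1.33% in WT, against 19.7% to 54.0% of the other cells. Endothelial cells held Wnt6 in 11.95% (KO) and 5.28% (WT), Tcf21 in 5.24% and 1.22%, and Nr2f2 in 11.95% and 16.39%. The Tcf21 shares of Cyp11a1-positive cells thus lay near those of endothelial cells.

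Since Cyp11a1 itself rose, the Cyp11a1-positive cells are a larger share of the KO cells than of the WT cells and need not be the same kind of cell in both. Fst, which was also found in fewer of all KO cells, was found in 17.6% and 4.96% of Cyp11a1-positive cells in KO and in 80.0% and 77.3% in WT, and Kitl in 52.7% and 63.7% against 81.2% and 85.1%. Inha was found in 76.6% and 81.5% in KO against 49.4% and 44.9% in WT. Among the leading risers, Pnmt was found in 27.5% and 25.2% of Cyp11a1-positive KO cells and in 6.67% and 4.85% of the other KO cells, against 1.66% and 1.33% of Cyp11a1-positive WT cells. Ctrb1 was found in 23.8% and 19.2%, in 5.61% and 2.82%, and in 5.23% and 4.0% of these cells in the same order. Olfml3 was spread more evenly, in 42.1% and 49.7% of Cyp11a1-positive KO cells and in 32.0% and 30.2% of the others, against 3.80% and 4.22% of Cyp11a1-positive WT cells. As a background level, endothelial cells held Pnmt in 1.93% (KO) and 0% (WT), Ctrb1 in 3.77% and 0%, Olfml3 in 3.83% and 0.708%, Inha in 8.59% and 2.92%, and Kitl in 56.6% and 56.2%. The Kitl shares in KO were thus near those of endothelial cells, which carry the gene at a level that gives no background for it, and the Ctrb1 shares in the other KO cells lay near the background level. Amh was found in 14.2% and 6.11% of Cyp11a1-positive KO cells and in 2.52% and 1.34% of the other KO cells. Cells of a library share its free RNA and were not treated as replicates, and these shares carry no test.

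**Figure D4:**
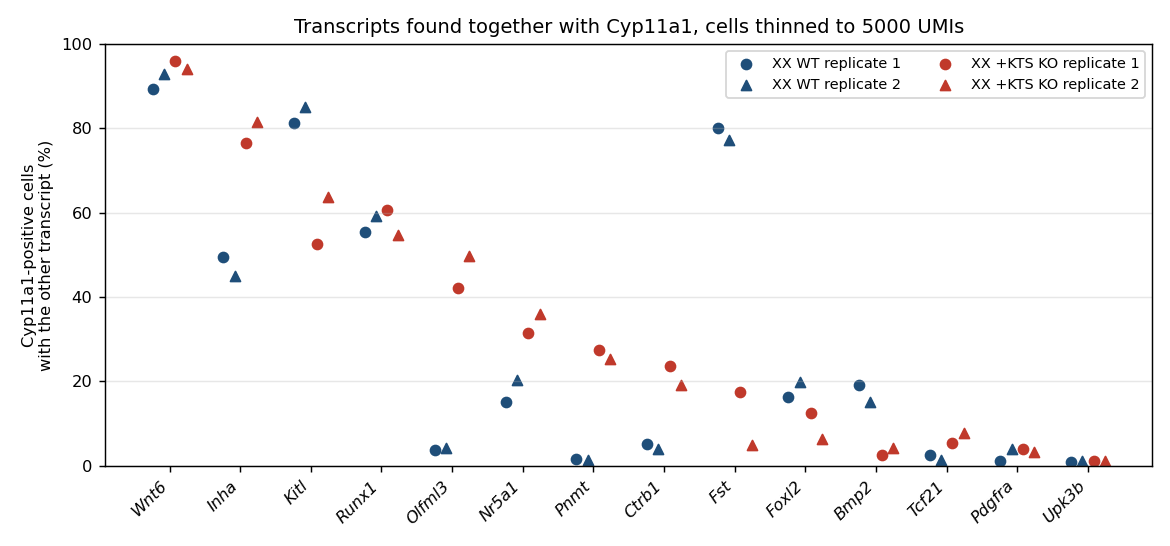
Share of Cyp11a1-positive cells that held at least 1 UMI of each other gene, in percent, after thinning to 5000 UMIs; each point is an XX library, blue for WT and red for +KTS KO. Wnt6 is at 89.3% or more in all 4 libraries, Fst falls from 80.0% and 77.3% in WT to 17.6% and 4.96% in KO, and Olfml3, Pnmt and Ctrb1 are higher in KO.

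Of 32 Wnt and R-spondin genes, 4 fell and none rose, against 2.66% and 2.22% of all genes. Rnf43, a ubiquitin ligase that removes Wnt receptors, was at 0.413 and 0.368 CPM in KO and at 2.57 and 3.21 CPM in WT (log2 -2.88, edgeR adjusted p = 0.00301), and Wif1, a secreted Wnt inhibitor, at 0.404 and 0.314 CPM against 1.68 and 2.34 CPM (log2 -2.48, adjusted p = 0.00296). Lgr5, a receptor for R-spondins, was at 0.826 and 0.368 CPM against 5.52 and 5.17 CPM (log2 -3.15, adjusted p = 0.0166), and Dkk1, another secreted inhibitor, at 0.272 and 0.509 CPM against 4.34 and 4.21 CPM (log2 -3.46, adjusted p = 0.0474). All 4 were rare transcripts, with 29 to 88 UMIs per KO library. The general targets Axin2 (16.2 and 11.6 CPM against 17.4 and 24.1 CPM) and Lef1 (37.0 and 30.9 CPM against 46.7 and 53.9 CPM) did not pass, at adjusted p of 0.384 and 0.181. Among 24 tested BMP and TGF-beta genes, Bmp2 fell and no other was called. Its relative Bmp4 was at 8.32 and 21.1 CPM against 3.95 and 6.26 CPM (log2 1.52, adjusted p = 0.107).

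Of 20 Notch genes, 3 rose, against 2.22% of all genes, and none fell. Lfng, which modifies Notch receptors, was at 7.44 and 7.18 CPM in KO and at 2.03 and 1.92 CPM in WT (log2 1.89 ± 0.20 SE, adjusted p = 0.00173). The target gene Hes5 was at 0.770 and 0.617 CPM against 0.118 and 0.0752 CPM, on 82 and 57 UMIs against 9 and 8 (log2 2.85, adjusted p = 0.0116), and Hey2 at 0.544 and 0.736 CPM against 0.197 and 0.263 CPM (log2 1.46, adjusted p = 0.0425). Lfng was found in 8.49% (KO) and 7.30% (WT) of the endothelial cells set aside and in 3.22% and 0.94% of somatic cells. Hes5 was in 1.78% and 1.22% against 0.36% and 0.026%, and Hey2 in 1.36% and 1.18% against 0.36% and 0.12%. The part of endothelial cells in these rises was not tested. Hes5 turned to a log2 fold change of -0.0357 when all cells that passed the filters were summed (adjusted p = 0.985). Hey2 lost its call without the low-count filter, with the replicate block, after doublet removal or thinning, with all cells and with the 4 XX libraries alone, at adjusted p of up to 0.127. Of 12 tested Hedgehog genes, the ligand Dhh and the transcription factor Gli2 rose, the latter to 10.6 and 10.2 CPM from 3.61 and 4.87 CPM. The pathway targets Gli1 (log2 1.80, adjusted p = 0.154) and Ptch1 (log2 0.68, adjusted p = 0.378) did not pass.

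Growth factor genes moved in both directions, and the counts below stand against 2.22% of all genes higher and 2.66% lower. Of 17 FGF genes, the ligand Fgf18 rose (17.8 and 20.7 CPM against 6.98 and 5.28 CPM, log2 1.65 ± 0.24 SE, adjusted p = 0.00634), the receptor Fgfr4 rose (0.460 and 1.11 CPM against 0.105 and 0.235 CPM, log2 2.17, adjusted p = 0.0457), and the receptor Fgfr2 fell (36.1 and 28.8 CPM against 57.3 and 56.1 CPM, log2 -0.80 ± 0.17 SE, adjusted p = 0.0245). Of 13 insulin-like growth factor genes, 3 fell and 1 rose. The ligand Igf1 fell to 34.9 and 33.4 CPM from 70.5 and 65.8 CPM, and the binding proteins Igfbp2 and Igfbp4 fell to 187 and 101 CPM from 384 and 344 CPM, and to 173 and 147 CPM from 378 and 389 CPM. Igfbp5 rose (462 and 521 CPM against 225 and 338 CPM, adjusted p = 0.0491), while the ligand Igf2 (458 and 504 CPM against 258 and 335 CPM) did not pass. Among 16 tested retinoic acid genes, 2 fell: Aldh1a1, which makes retinoic acid (8.26 and 5.79 CPM against 13.1 and 14.1 CPM, adjusted p = 0.0228), and Stra6, which takes up retinol (1.41 and 1.63 CPM against 4.87 and 6.55 CPM, adjusted p = 0.0253). Of 6 PDGF genes, Pdgfb rose (1.69 and 1.49 CPM against 0.564 and 0.724 CPM, log2 1.30, adjusted p = 0.0344) and Pdgfa did not pass (43.3 and 43.8 CPM against 44.0 and 36.8 CPM). Pdgfb was found in 43.3% (KO) and 30.5% (WT) of the endothelial cells set aside, against 0.82% and 0.34% of somatic cells. The part of endothelial cells in its rise was not tested. Of the 18 signalling genes called in these lists apart from Bmp2 and Dhh, only Wif1, Rnf43 and Lfng passed whichever XX embryo was left out. The other 15 lost their call in at least 1 fit, at adjusted p from 0.053 to 0.321.

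Of 25 collagen and matrix genes, 5 rose and none fell, against 2.22% and 2.66% of all genes, and 4 of these encode basement membrane proteins: Col4a1 (131 and 125 CPM in KO against 49.0 and 66.6 CPM in WT), Col4a2 (72.2 and 66.4 CPM against 25.4 and 34.8 CPM), Lama1 (23.7 and 24 CPM against 14.0 and 13.1 CPM) and Nid1 (21.1 and 22.9 CPM against 11.2 and 14.7 CPM). The fifth was Col6a1, at 41.7 and 47.0 CPM against 11.9 and 16.3 CPM (log2 1.65 ± 0.30 SE, edgeR adjusted p = 0.0156). None of 16 cadherin, claudin and junction genes was called. Among 10 cell cycle inhibitors and D cyclins, Cdkn1b and Cdkn1c (p57) fell, the latter to 1084 and 980 CPM from 2373 and 2055 CPM (log2 -1.10 ± 0.20 SE, adjusted p = 0.015), while none of 27 S-phase and mitosis genes was called (median log2 fold change 0.11).

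Of 16 interstitial progenitor genes, Mgp and Gli2 rose and Lhx2, at 1.51 CPM or less in every library, fell, where 2.22% of all genes rose and 2.66% fell. Mgp, the matrix Gla protein, was at 31.8 and 26.4 CPM in KO against 5.38 and 8.70 CPM in WT (adjusted p = 0.0396). Tcf21 varied widely within WT and did not pass, at 182 and 256 CPM against 150 and 70.9 CPM (adjusted p = 0.312), and Nr2f2 was at 144 and 137 CPM against 78.8 and 105 CPM (adjusted p = 0.204). Of 13 coelomic epithelium genes, Krt19 rose (36.3 and 42.5 CPM against 21.1 and 19.9 CPM, adjusted p = 0.0403), while Upk3b (39.6 and 33.9 CPM against 59.2 and 50.7 CPM) and Krt8 (log2 -0.55) did not pass. The glycolytic enzyme Hk1 rose, alone among 17 glycolysis and hypoxia genes (80.2 and 76.5 CPM against 26.8 and 31.7 CPM, adjusted p = 0.013). None of 38 splicing factor genes was called, nor any of 11 genes of the route to Sry. Sry itself, among those 11, had 0 UMIs in all 4 XX libraries and so could not be called. None of 22 immediate early and stress genes was called either, although 19 of them had a positive estimate (median log2 fold change 0.67), among them Junb (80.8 and 60.1 CPM against 26.1 and 16.7 CPM) and Btg2 (143 and 131 CPM against 46.7 and 31.4 CPM). Leaving aside Gli2, which lost its call without WT replicate 1 (adjusted p = 0.0619), each of the 11 genes called in the matrix, cell cycle, interstitial, coelomic and glycolysis lists lost it in all 4 fits without an XX embryo, at adjusted p from 0.0519 to 0.272.

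The same loss of +KTS was set beside XY gonads, which share no library with the XX comparison. There 2333 genes were called (12.9%), 1154 higher (6.4%) and 1179 lower (6.54%). Called in both sexes were 331 genes, which is 37.7% of the XX calls and 14.2% of the XY calls; 268 of them moved in the same direction and 63 in opposite directions. Cyp11a1 rose in both, to 94.5 ± 54.3 CPM (SD, n = 2) from 19.1 ± 9.72 CPM in XY (log2 2.31, edgeR adjusted p = 0.0226), and the difference between the sexes did not pass (log2 0.51, adjusted p = 0.724). Serpinb6b and Ifi27 fell in both, Ifi27 to 25.2 ± 7.19 CPM from 55.2 ± 6.64 CPM in XY. Lfng rose in both.

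The change differed between the sexes for 728 genes (4.04%), with a more positive change in XX for 373 (2.07%) and a more negative one for 355 (1.97%). On the autosomes this held for 705 of 17407 genes (4.05%), 357 more positive (2.05%) and 348 more negative (2.0%). Among the 879 genes called in XX, 256 (29.1%) had such a difference. The XX change is part of the difference tested, so genes chosen for a large XX change are favoured in this share and in the next count. Of the 15 leading XX risers, 11 were among these 256, and Mgam, Cyp11a1, Tagln and Lmo1 were not. Several of the 11 had levels in XY WT well above those in XX WT. Pnmt stood at 19.4 ± 2.60 CPM in XY WT beside 25.8 ± 7.07 CPM in the XY mutant, Ctrb1 at 64.7 ± 5.85 and 64.8 ± 1.35 CPM, and Olfml3 at 112 ± 0.886 and 96.4 ± 40.8 CPM. For these 3 genes XX WT was the group with low levels, and XX +KTS KO stood at 46.7, 79.0 and 138 CPM. Of the 17 pre-granulosa genes, 10 and, of the 12 Sertoli genes, 8 also had a called difference. Foxl2 rose in XY to 20.5 ± 16.6 CPM from 0.994 ± 0.665 CPM, against no called change in XX (difference of log2 changes -5.32, adjusted p = 0.0229). Fst averaged 56.1 ± 53.3 CPM in the XY mutant against 5.96 ± 6.61 CPM in XY WT (difference -7.61, adjusted p = 0.0403). Both XY means rest largely on 1 library: Foxl2 was at 32.2 CPM in XY +KTS KO replicate 1 and 8.70 CPM in replicate 2, and Fst at 93.8 and 18.4 CPM. Replicate 1 stood apart in other measures too, with 11.5% of cells over 5% mitochondrial UMIs against 0.778% in replicate 2, 1618 against 321 cells under 5000 UMIs, and Junb at 305 against 62.8 CPM. The part of these in the result was not tested. Without replicate 1 the difference between the sexes stayed called for Foxl2 and was no longer called for Fst. Among the fits that left out 1 library, Fst kept it only in those without XY +KTS KO replicate 2 or XY WT replicate 2. For Foxl2 it was lost in 4 of the 8 fits that left out 1 library, those without XX +KTS KO replicate 2, XX WT replicate 1, XX WT replicate 2 or XY WT replicate 1.

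For several Sertoli genes the mutants of both sexes lay side by side between the WT levels. Amh averaged 13.5 ± 8.49 CPM in the XX mutant (n = 2) beside 18.5 ± 10.2 CPM in the XY mutant, with 0.352 CPM on the XX WT side and 132 CPM on the XY WT side (difference of log2 changes 8.08, adjusted p = 0.00454). Dhh was at 5.24 ± 1.03 CPM and 6.12 ± 1.43 CPM, between 0.440 and 56.5 CPM (difference 6.77, adjusted p = 0.000185). Siglece, a sialic acid receptor best known from immune cells, was at 2.63 and 2.64 CPM in the XX KO libraries and at 2.79 ± 0.311 CPM in the XY mutant, against 0.210 and 0.160 CPM in the XX WT libraries and 26.7 ± 2.90 CPM in the XY WT group (difference 7.10, adjusted p = 3.22e-05). In contrast, the non-coding RNA Lncbate6 fell in XY to 0.943 ± 0.364 CPM from 40.3 ± 2.45 CPM and was at 0.432 to 0.812 CPM in all 4 XX libraries. Wfdc1, a secreted protease inhibitor-like protein, rose in XY to 28.4 ± 16.1 CPM from 2.63 ± 0.603 CPM, against 15.2 and 10.8 CPM in XX KO and 33.1 and 25.1 CPM in XX WT.

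**Figure D5:**
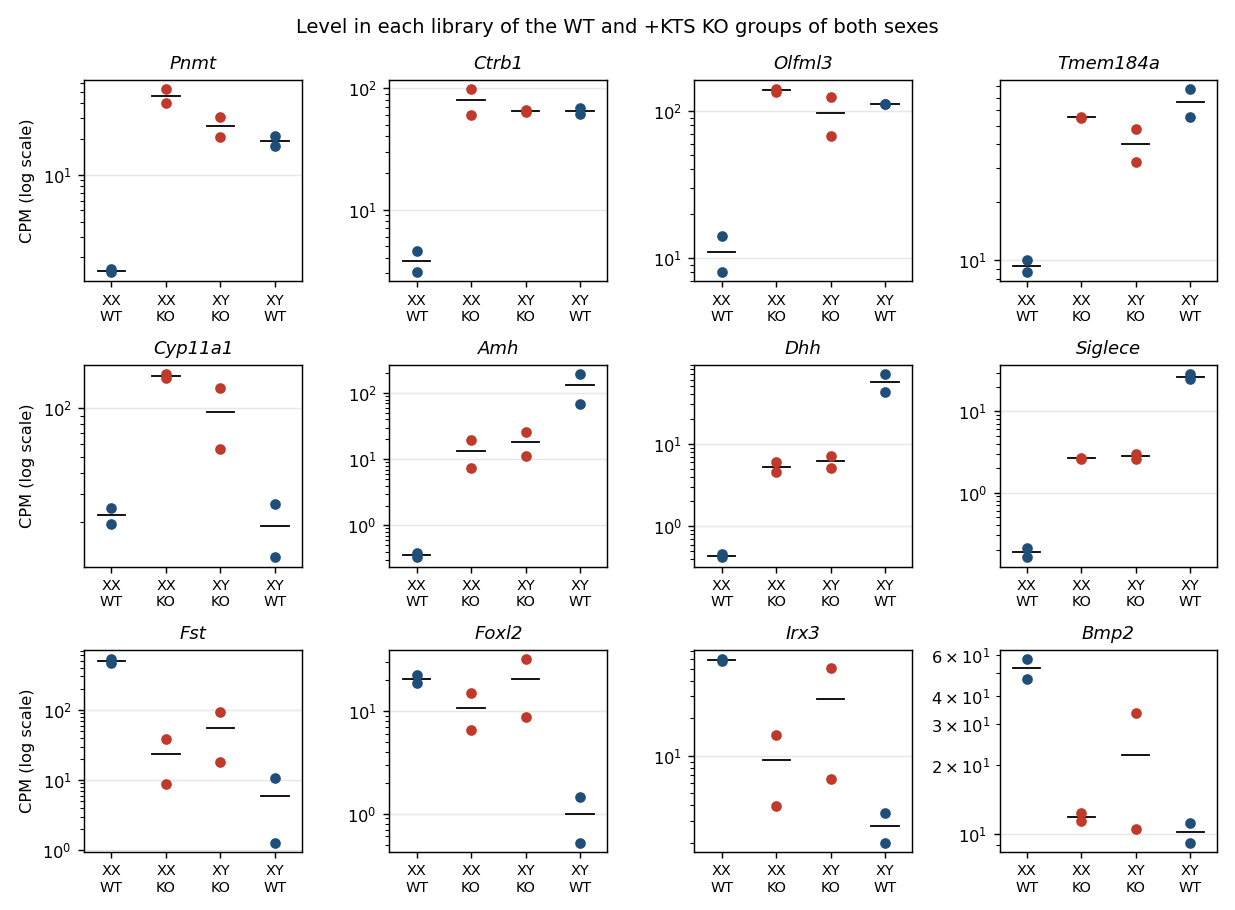
Level in CPM (log scale) of 12 genes in each WT (blue) and +KTS KO (red) library of both sexes; points are libraries and horizontal lines are group means. Pnmt, Ctrb1, Olfml3 and Tmem184a are low only in XX WT among these groups, the 2 mutants lie between the WT groups for Amh, Dhh and Siglece, and Cyp11a1 is higher in both mutants.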

How the data were processed

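Raw UMI count matrices (10x Genomics 3′ single-cell libraries) were used as deposited. The authors made these counts with Cell Ranger 6.0 on mm10 per the labels' processing notes, without normalization. The kit chemistry is given differently in the sources used here. Barcodes were kept from 1000 detected genes upward and up to 10% mitochondrial UMIs. Cells with 10 or more germ cell UMIs (Dppa5a, Pou5f1, Ddx4, Dazl), 3 or more endothelial (Cdh5, Tie1) or immune (Tyrobp, Fcer1g) UMIs, or more than 20% globin UMIs were set aside, and the counts of the rest were summed per library. The cells were kept as 1 population and not clustered. Doublets were kept in the main analysis; an alternative removed the cells with the highest Scrublet scores, at 0.8% per 1000 barcodes, because Scrublet's own threshold marked as few as 0 cells in a library. Barcodes shared between XX libraries were at most 0.274% of a library.

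Genes were tested with edgeR 4.0.16 (TMM, filterByExpr, robust quasi-likelihood F-test) in R 4.3.3 on all 12 libraries in 6 groups, with 6 residual degrees of freedom, and Benjamini-Hochberg adjustment over 18019 genes at 0.05. The 2 contrasts were +KTS KO minus WT in each sex, with their difference. Standard errors were obtained as the size of the log2 fold change over the root of F. The members, gene lists and tests were chosen with earlier results of these data known. Named are the 15 largest rises and falls among called genes with groups that did not overlap and at least 20 CPM, the 5 largest differences between the sexes in each direction, the study's markers, and up to 5 members per list with the smallest p plus ligands, receptors and targets. A further 2 genes named by this rule are not reported here. Shares of cells were taken after thinning to 5000 UMIs. Coordinates are from GENCODE M21 on GRCm38 and promoters from RefSeq. In simulated counts, where changed genes had known folds in the XX comparison, the test called 78.1% of genes changed 4-fold, 34.6% of those changed 2-fold, and 5.76% of those changed 1.5-fold. Of the simulated calls, 3.88% fell on unchanged genes. The counts were drawn with the typical spread at each expression level, not each gene's own, so these rates need not hold for genes of wider spread. Totals of 76059191 to 110103277 UMIs per XX library leave counting error small for abundant genes but not for those on few UMIs. No 2 replicates of an XX group were duplicates (chi-square per degree of freedom of 66.8 to 90.4). DESeq2 1.42.0, other scalings, no filter, a replicate block, other cell sets and leaving out each embryo were tried as alternatives. The sources used here do not say that a replicate number shared by groups marks a shared embryo, litter or day.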

Additional observations from a re-analysis of the deposited data

Results flagged for a closer look

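A gene is listed here when its +KTS KO change differed between XX and XY in edgeR's quasi-likelihood test of that difference (adjusted p below 0.05 over all genes). This held for 39 of the genes named above, and each value is the XX log2 change minus the XY log2 change. Many of the genes were named for a large XX change, which is part of this difference, so the listing favours them. A total of 20 were positive. In the supporting lineage these were Amh (8.08), Dhh (6.77) and Cbln4 (4.46). Among the leading XX risers they were Gm2694 (6.61), Ren1 (5.25), Trim47 (4.84), Pnmt (4.50), Ctrb1 (4.39), Olfml3 (3.86), Tmem184a (3.30), Cdo1 (2.83), Gsg1l (2.46), Ctrl (2.10) and Arhgef16 (1.41). The others were Siglece (7.10), Lncbate6 (5.93), the Notch target Hes5 (6.19), the ligand Pdgfa (1.69), the adrenal marker Mc2r (1.34) and Aldh1a1 (1.26).

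A further 19 were negative. In the pre-granulosa list these were Fst (-7.61), Irx3 (-6.04), Foxl2 (-5.32), Bmp2 (-3.24), Axin2 (-2.93), Wnt4 (-2.88), Lef1 (-2.20), Cdkn1b (-2.09) and Rspo1 (-2.02). Among the fallers they were S1pr1 (-4.10), Dcaf12l1 (-3.62), Nrn1 (-3.44) and Lbx2 (-1.51). The others were Wfdc1 (-4.59), Rnf43 (-4.03), Fgfr2 (-2.56), Igfbp2 (-2.46), Cdkn1c (-1.68) and Igf1 (-1.62).

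Of these 39 genes, 20 kept a called difference in each of 8 fits that left out 1 library of the 4 groups. They were Amh, Axin2, Cbln4, Cdkn1b, Cdo1, Dcaf12l1, Dhh, Fgfr2, Gsg1l, Hes5, Igfbp2, Lef1, Lncbate6, Olfml3, Pnmt, Rnf43, Siglece, Tmem184a, Trim47 and Wfdc1. The direction turned for none of the 39 in these fits or in the other alternatives.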

How the results depend on the processing

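The count of XX calls (879) became 1533 with DESeq2, 1594 with the 4 XX libraries alone and 468 with all cells that passed the filters, and ranged from 161 to 308 when 1 XX embryo was left out. The difference between the sexes (728) became 1582 with DESeq2 and 285 with all cells, and ranged from 176 to 1525 when 1 library was left out. The XY count (2333) ranged from 720, without XY WT replicate 1, to 3104, without XY +KTS KO replicate 2, when 1 library was left out, and from 1860 with all cells to 3432 with DESeq2 under the other alternatives. No low-count filter, other size factors, doublet removal, thinning and removal of perivascular and mesonephric cells left these 3 counts within 1.5-fold. The cause of these shifts was not tested, and the fits that left out 1 library also had fewer samples. With replicate number as a block, the XX count was 793 and the difference 571. The deviations of the replicate-1 libraries had a correlation of 0.0119 over 5627 genes between the XX groups and of -0.31 between the XY groups, and no source says that the numbers pair samples. Among the named genes, the sign turned only for Rspo1 (0.078 with all cells; -0.64 to 0.28 leaving out 1 XX embryo), Runx1 (-0.0585 to 0.40 leaving out 1), Sox9 (0.16 with all cells; -0.45 to 0.60 leaving out 1), Wt1 (0.0096 with all cells), Hes5 (-0.0357 with all cells) and Pdgfa (-0.18 with all cells; -0.0141 to 0.24 leaving out 1), in log2 units. Of these 6, only Hes5 was called in the full data. Of the 73 named genes called in XX, 28 lost the call with all cells, 12 with the block, 11 without the low-count filter (Cyp11a1, Ren1, Tagln, Bmp2, S1pr1, Col12a1 and Myl1 among them), 12 after thinning, 5 with the 4 XX libraries alone, 4 after doublet removal, 1 with other size factors, none with DESeq2 or without perivascular and mesonephric cells, and 40 to 50 when 1 XX embryo was left out. Named genes that gained a call numbered 10 with DESeq2 (Fst, Kitl and Star among them), 11 with the 4 XX libraries alone, 2 with the block, and 1 each after doublet removal, without the filter and without XX +KTS KO replicate 1.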
